A study of Mus musculus with 49 samples.

Results

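The genes described here are the transcription factor p53 (Trp53), its antagonist Mdm2 and 8 further genes of p53-driven arrest and of mitochondrial apoptosis: Cdkn1a, Ccng1, Gadd45a, Bax, Bbc3, Pmaip1, Bcl2l1 and Mcl1. They were chosen by symbol, as the rows of the count tables whose Ensembl identifier carries one of these 10 symbols in the GENCODE annotation of mouse GRCm38, which gave 10 of 54838 gene rows. Each library was 1 late 2-cell mouse embryo, F1(C57BL/6JxCBA/H), sequenced with Smart-seq+5', a low-input protocol whose adaptors separate transcript starts from inner fragments, of which the starts alone were counted. The experiment addressed what the embryo transcribes without TBP, the TATA-binding protein of the general transcription machinery, or without the forkhead factor FOXJ3. In both LOF groups the protein was targeted by Trim-Away, in which an injected antibody marks its target for degradation by the ubiquitin ligase Trim21. The authors reported depletion of both proteins by immunostaining of other embryos, and did not exclude residual TBP or a transient loss. Protein was not measured in the sequenced embryos. TBP LOF embryos (9) received mouse antibody 3G3 against TBP and their CONTROL embryos (10) normal mouse IgG, whereas FOXJ3 LOF embryos (17) received rabbit antibody against FOXJ3 and their CONTROL embryos (13) normal rabbit IgG. Zygotes of all 4 groups, CONTROL embryos included, were injected with mCherry-Trim21 mRNA 4 h after the antibody and were collected 48 h after hCG. Because the antibodies were injected after fertilisation, protein that had acted earlier is not addressed by the design. Libraries of the FOXJ3 experiment came as batch 1 (10 LOF, 7 CONTROL) and batch 2 (7 LOF, 6 CONTROL). TBP embryos were collected in 3 biological replicates and processed at once.

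p53 is a transcription factor that is kept scarce by MDM2, a ubiquitin ligase whose gene is itself a p53 target. Activated p53 raises genes that halt the cell cycle and genes of the BCL-2 family, in which BH3-only proteins such as PUMA (Bbc3) and NOXA (Pmaip1) counter the guardians BCL-XL (Bcl2l1) and MCL1 and so release BAX to permeabilise mitochondria. At the late 2-cell stage the mouse embryo has just begun to transcribe its own genome while much of the oocyte's RNA is being cleared, so that a transcript can be maternal, embryonic or both.

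The DNA before the start sites of these genes is shown because TBP and p53 both bind DNA, and because some members passed the test upon TBP LOF and others did not. RefSeq start sites on GRCm38.p6 gave 14 windows for 9 of the 10 members, and the 250 bases before each start were searched on both strands. A TATA box was searched as TATAAA. A further motif was CCAAT. The GC box was searched as GGGCGG. The last was the degenerate p53 half-site, which reads the same on both strands, and overlapping matches were counted separately. The stretches printed here lie before the start sites of the 2 members whose LOF embryos all lay below their CONTROL embryos (Trp53 and Mdm2). Those of 2 members that did not pass the test are also printed (Cdkn1a and Bcl2l1, each at its outermost start only). They lie outside every annotated exon, run 5′ to 3′ on the strand of the gene, and have every match to the motifs in capitals.
Trp53, chr11:69580256-69580358, forward strand: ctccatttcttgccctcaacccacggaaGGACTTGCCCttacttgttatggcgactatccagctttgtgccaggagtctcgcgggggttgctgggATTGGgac
Mdm2, chr10:117710759-117710878, reverse strand: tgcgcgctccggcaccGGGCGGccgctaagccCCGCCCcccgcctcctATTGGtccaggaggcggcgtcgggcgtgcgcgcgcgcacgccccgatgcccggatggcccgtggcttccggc
Cdkn1a, chr17:29090856-29090975, forward strand: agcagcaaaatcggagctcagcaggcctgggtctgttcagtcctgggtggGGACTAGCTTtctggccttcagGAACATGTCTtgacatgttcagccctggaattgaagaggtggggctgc
Bcl2l1, chr2:152831729-152831848, reverse strand: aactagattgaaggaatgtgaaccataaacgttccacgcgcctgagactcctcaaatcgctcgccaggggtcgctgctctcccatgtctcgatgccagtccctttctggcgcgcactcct
In capitals are a p53 half-site and a CCAAT match on the reverse strand for Trp53, GC boxes and a CCAAT match for Mdm2, and p53 half-sites for Cdkn1a, while the Bcl2l1 stretch held none of these letters. Over the full 250 bases, a p53 half-site lay in 6 of the 14 windows, 1 window each of Trp53, Mdm2, Cdkn1a, Ccng1, Gadd45a and Bax, against 7.13% of 32851 windows of all genes. The outermost Cdkn1a window held 2 half-sites and 0 GC boxes, and its other window 0 half-sites and 2 GC boxes. TATAAA lay in 1 of the 14 windows, on the reverse strand 248 bases before the start of Trp53 (12.4% of all windows held it on either strand), and in 0 of them on the gene's strand between 40 and 20 bases before the start, where 1.99% of all windows had it. CCAAT was found in 5 of the 14 windows, near its share of 33.8% in all windows, and GGGCGG in 8 of the 14 (32.7% of all windows). Those with GGGCGG belonged to 6 members, with several windows of Bbc3 among them. The member windows were richer in G and C, at a median of 57.2% against 52.4% in all windows, and up to 81.6% for Bbc3. None of the 4 motifs was found in the 3 windows of Bcl2l1. These are matches of letters, and binding was not measured here.

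Of the 49 embryos, 47 passed the thresholds of the study for reads, genes, mitochondrial reads and spike-in reads, with between 1103569 and 5434808 counted reads each. All values below are from these 47 embryos, 9 in either group of the TBP experiment, 16 FOXJ3 LOF and 13 CONTROL embryos. ERCC spike-in RNA came with the lysis buffer that all TBP and CONTROL embryos shared. It made up 4.29% ± 1.19 of the reads of a TBP LOF embryo (SD, n = 9), against 2.76% ± 0.372 with mouse IgG (SD, n = 9). Markers of the late 2-cell stage (Zscan4c, Zscan4d, Zfp352, Eif4e3, Tcstv3 and Usp17la) were all detected in each group. Levels in CPM are counts per 1000000 reads of genes and transposable elements, without spike-in and construct reads. The summed level was 362 to 1042 CPM in TBP LOF, 139 to 529 in its CONTROL, 172 to 561 in FOXJ3 LOF and 142 to 888 in its CONTROL embryos. The median summed marker level and the spike-in share were higher with TBP LOF, and their part in its results was not tested. Relative to the spike-ins, Tcstv3 alone among these markers was higher (1.77 on the log2 scale, adjusted p = 4.19e-05 by the quasi-likelihood test of edgeR). The other markers did not pass that test, with Zfp352 at 0.52, Eif4e3 at 0.25 and Zscan4c at -1.24. Of 11 cumulus and granulosa cell markers, Fshr and Inhba were at 0 in all 47 embryos, and the summed level of the list reached at most 24.9 CPM in any embryo. Tnfaip6 was read in 35 embryos (at most 24.0 CPM), Cyp19a1 in 20, and each of the others in at most 9. Relative to the spike-ins, Tnfaip6 was lower upon TBP LOF (-2.46, adjusted p = 0.00867 by the same test), and its part in the results was not tested. Tbp mRNA was lower in TBP LOF embryos (by -2.14 on the log2 scale with SE 0.37, adjusted p = 5.28e-06 by the quasi-likelihood test of edgeR), and Foxj3 mRNA did not pass the test in FOXJ3 LOF embryos (0.28, adjusted p = 0.861). As Trim-Away degrades protein, neither value checks the labels.

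Upon TBP LOF, 5 of the 10 members fell relative to the spike-ins and 0 rose, against 29.8% of 18447 genes tested that were lower and 1.4% that were higher. Those that fell were Trp53 and Mdm2, the arrest gene Gadd45a, the pore-forming effector Bax and the guardian Mcl1. The median log2 fold change of the members was -1.18, beside -0.70 over all genes tested. In 2 of the 10 members, Trp53 and Mdm2, all 9 LOF embryos lay below the lowest CONTROL embryo, as in 6.96% of genes tested, and in 0 did all lie above the highest, as in 0.0108%. Counts in this experiment were set to the ERCC reads of each embryo, so that a level is per whole late 2-cell embryo, relative to the spike-in RNA. Per-gene tests are two-sided quasi-likelihood tests of edgeR, adjusted by the Benjamini-Hochberg method over all genes and TE (transposable element) families, with a threshold of 0.05. All 10 members passed the filter on low counts in both experiments.

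**Figure D1:**
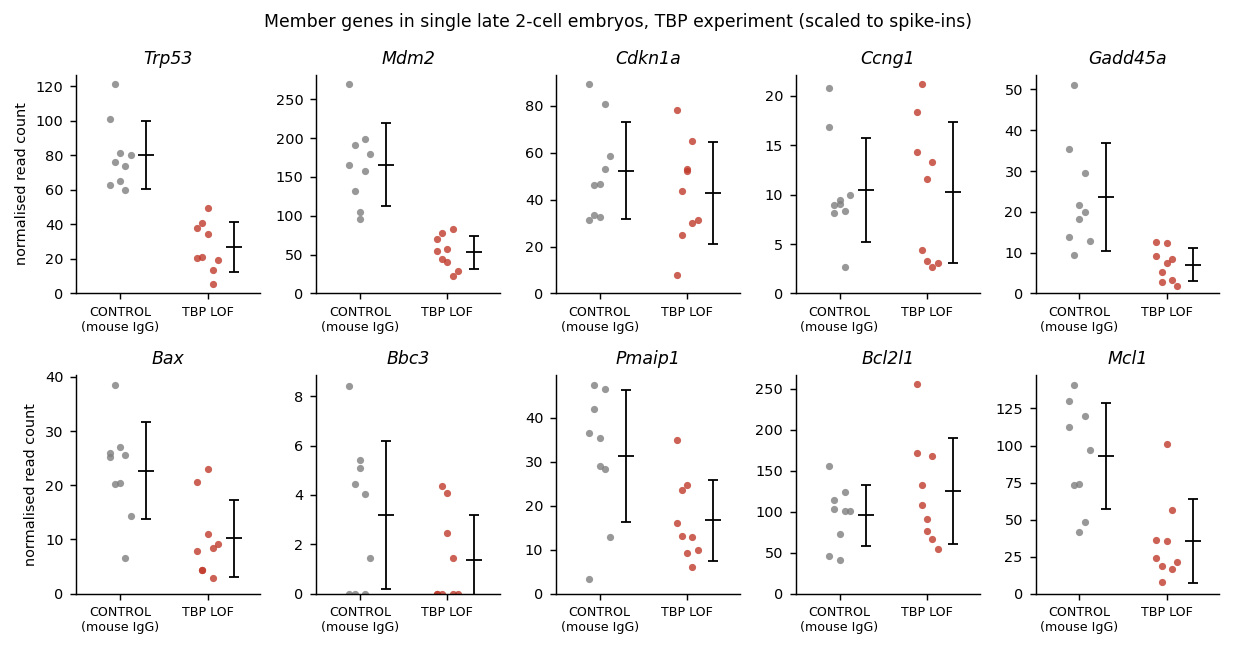
Normalised read counts (scaled to spike-ins, vertical axis from 0, scale differs between panels) of the 10 genes in each CONTROL (grey, n = 9) and TBP LOF embryo (red, n = 9), with mean and SD as black bars that are cut at 0 for Bbc3. Trp53 and Mdm2 are the panels in which the groups do not overlap, while Ccng1, Cdkn1a and Bcl2l1 overlap over most of their range.

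Trp53 (ENSMUSG00000059552.13, chromosome 11, 69580359 to 69591873, forward strand), the p53 gene, had a median of 21.2 normalised read counts in TBP LOF embryos, with a lowest of 5.55 and a highest of 49.2. In CONTROL embryos the median was 75.9, between 59.9 and 121. The groups did not overlap, and log2 fold change was -1.59 with SE 0.34 (adjusted p = 0.000197). Mdm2 (ENSMUSG00000020184.15, chromosome 10, 117688875 to 117710758, reverse strand), which encodes the ligase that targets p53 for degradation, had 22.7 to 83.3 normalised read counts in LOF embryos (median 55.1) and 95.7 to 269.6 in CONTROL embryos (median 165). Here too no LOF embryo reached the CONTROL range, and log2 fold change was -1.65 with SE 0.31 (adjusted p = 2.44e-05). Both calls were kept in each of the 18 fits that left out a single embryo. Within an embryo, the log2 ratio of Mdm2 to Trp53 reads averaged 1.10 ± 0.840 with LOF (SD, n = 9) and 1.01 ± 0.423 with IgG (SD, n = 9), and LOF embryos spread beyond the CONTROL range on both sides, 3 above and 2 below it.

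Of the genes of p53-driven arrest, Gadd45a fell while Cdkn1a and Ccng1 did not pass the test. Gadd45a (ENSMUSG00000036390.8, chromosome 6, 67035096 to 67037457, reverse strand), a stress sensor that binds PCNA and CDK1, had 1.84 to 12.7 normalised read counts in LOF embryos (median 7.38) and 9.48 to 51.2 in CONTROL embryos (median 19.95). Here 7 of 9 LOF embryos lay below the lowest CONTROL embryo, and the change, -1.78 on the log2 scale with SE 0.46 (adjusted p = 0.00176), was the lowest of the 10 members. Cdkn1a (ENSMUSG00000023067.14, chromosome 17, 29090976 to 29100727, forward strand), which encodes the CDK inhibitor p21, had 7.94 to 78.1 normalised read counts in LOF embryos (median 43.6) and 31.2 to 89.3 in CONTROL embryos (median 46.8). The groups overlapped widely, with a log2 fold change of -0.27 (95% interval -0.96 to 0.41, adjusted p = 0.606). Ccng1 (ENSMUSG00000020326.7, chromosome 11, 40748552 to 40755311, reverse strand), which encodes cyclin G1, had 2.66 to 21.2 in LOF embryos (median 11.6) and 2.69 to 20.8 in CONTROL embryos (median 9.03). Its log2 fold change was -0.04 (95% interval -1.06 to 0.98, adjusted p = 0.970). Gadd45a and Cdkn1a each overlap another annotated gene on the opposite strand (E230016M11Rik and AC167363.2), and no source used here gives whether the counting used strand.

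Among the genes that promote apoptosis, Bax fell and the BH3-only genes Bbc3 and Pmaip1 did not pass the test. Bax (ENSMUSG00000003873.11, chromosome 7, 45461697 to 45466898, reverse strand), whose product forms pores in the outer mitochondrial membrane, had 2.90 to 22.95 normalised read counts in LOF embryos (median 8.45) and 6.65 to 38.6 in CONTROL embryos (median 25.3). All 9 LOF embryos were below the CONTROL median, but only 3 were below the lowest CONTROL embryo, and the log2 fold change was -1.16 (SE 0.44, adjusted p = 0.0375). This call was borderline. It was lost in 10 of 18 fits that left out 1 embryo, LOF embryo 2, 6, 7, 9 or 11 or CONTROL embryo 1, 3, 6, 8 or 10, with adjusted p = 0.0503 (without CONTROL embryo 1) to 0.0897 (without CONTROL embryo 8), while the log2 fold change in these fits stayed between -1.15 and -1.02. Bax shares its strand with an overlapping gene, Gm45808, so its reads are uncertain to that extent.

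Pmaip1 (ENSMUSG00000024521.7, chromosome 18, 66458533 to 66465565, forward strand), which encodes the BH3-only protein NOXA, had 6.04 to 34.9 normalised read counts in LOF embryos (median 13.1) and 3.37 to 47.5 in CONTROL embryos (median 35.3). All 9 LOF embryos were below the CONTROL median and 0 below the lowest CONTROL embryo. The log2 fold change was -0.93 (SE 0.40, adjusted p = 0.0737), and it passed the threshold in 2 of 18 fits that left out 1 embryo, at adjusted p = 0.0294 without CONTROL embryo 1 and 0.0312 without LOF embryo 8. Bbc3 (ENSMUSG00000002083.13, chromosome 7, 16308393 to 16318205, forward strand), which encodes PUMA, was hardly read: 5 of 9 LOF and 3 of 9 CONTROL embryos had 0 reads, and the others had at most 6 and 15 reads. At this depth its log2 fold change of -1.19 had a 95% interval of -2.93 to 0.55 (adjusted p = 0.331), so that no direction was detectable. A count of 0 in an embryo allows up to 3 reads by counting error alone.

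The guardian genes parted. Mcl1 (ENSMUSG00000038612.16, chromosome 3, 95658788 to 95663176, forward strand), which encodes a short-lived guardian of mitochondria, had 8.06 to 101 normalised read counts in LOF embryos (median 24.1) and 41.7 to 141 in CONTROL embryos (median 97.0). In 7 of 9 LOF embryos it was below the lowest CONTROL embryo while 1 LOF embryo was above the CONTROL median, and the log2 fold change was -1.39 (SE 0.36, adjusted p = 0.00171). Bcl2l1 (ENSMUSG00000007659.18, chromosome 2, 152780668 to 152831728, reverse strand), which encodes the guardian BCL-XL, had 54.7 to 256 in LOF embryos (median 108) and 41.5 to 156 in CONTROL embryos (median 101). It was the member with the highest log2 fold change, 0.38 (95% interval -0.25 to 1.01, adjusted p = 0.405), and 3 of 9 LOF embryos lay above the highest CONTROL embryo.

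Scaling decided several of these calls. When the same counts were scaled by TMM, which sets the bulk of genes equal between embryos instead of the spike-ins, the median of all genes moved from -0.70 to 0.13 and the genes called from 5497 lower and 258 higher to 2382 lower (12.9%) and 2437 higher (13.2%). Of the members, Mdm2 (-0.83, SE 0.21, adjusted p = 0.00435) and Trp53 (-0.77, SE 0.27, adjusted p = 0.0320) were then still called lower. Gadd45a (-0.91, adjusted p = 0.0758), Mcl1 (-0.56, adjusted p = 0.160) and Bax (-0.32, adjusted p = 0.559) were not. Bcl2l1 rose in this fit, with 1.24 as its log2 fold change (SE 0.24, adjusted p = 0.000318). Cdkn1a (0.76, adjusted p = 0.0990) and Ccng1 (0.81, adjusted p = 0.197) turned in sign without passing the test. As shares of gene and TE reads, the groups also overlapped for Trp53, with 5.88 to 31.9 CPM in LOF and 23.8 to 53.4 in CONTROL embryos. The same held for Mdm2, with 24.0 to 52.6 CPM in LOF and 48.4 to 142.5 in CONTROL embryos.

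**Figure D2:**
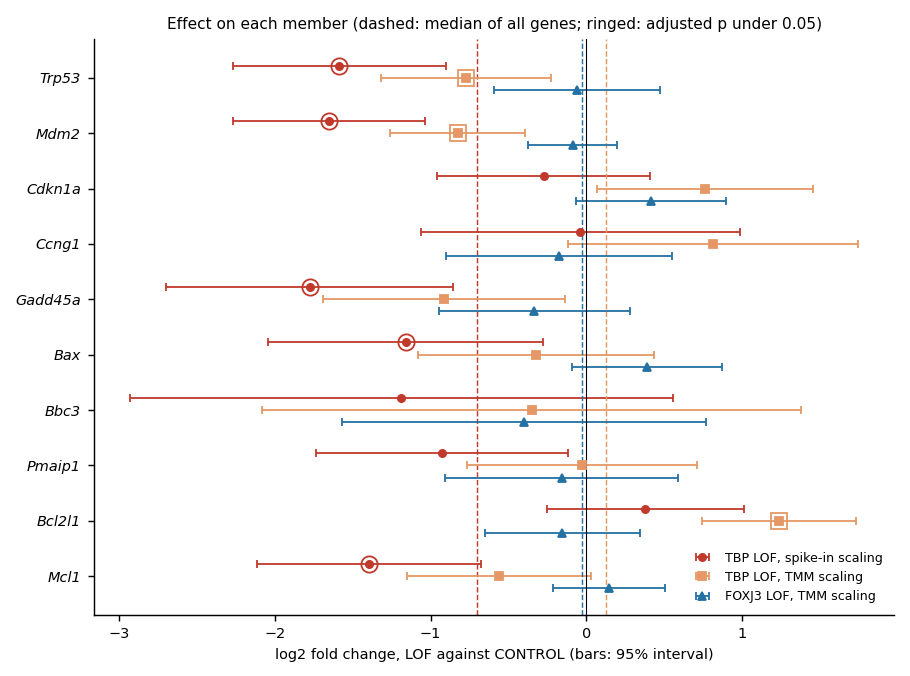
Log2 fold change of LOF against CONTROL (horizontal axis) for each of the 10 genes, with 95% intervals, upon TBP LOF by spike-in scaling (red circles) and TMM scaling (orange squares) and upon FOXJ3 LOF (blue triangles). Rings mark adjusted p under 0.05 and dashed lines the median of all genes (-0.70, 0.13 and -0.03): Trp53 and Mdm2 are ringed under both scalings of TBP LOF and Bcl2l1 only by TMM, whereas no gene is ringed upon FOXJ3 LOF.

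Ratios between 2 members within an embryo do not depend on the scaling, and were described without a test, for pairs chosen after the values were seen. The log2 ratio of Bcl2l1 to Mcl1 reads, taken after adding 0.5 to each, was 0.03 ± 0.81 (SD, n = 9) in CONTROL embryos and 1.98 ± 1.24 (SD, n = 9) in TBP LOF embryos, of which 8 of 9 were above the highest CONTROL embryo. In these 8 embryos reads of Bcl2l1 outnumbered those of Mcl1. They also did so in most CONTROL embryos, whose log2 ratio had a median of 0.06 and ran from -1.495 to 1.06. Bcl2l1 to Bax, guardian against effector, was 2.05 ± 0.98 in CONTROL and 3.67 ± 1.04 in LOF embryos (SD, n = 9 each), with 5 of 9 LOF embryos above the highest CONTROL embryo. Cdkn1a to Mdm2, a pair of p53 targets, was -1.68 ± 0.47 in CONTROL and -0.41 ± 1.31 in LOF embryos (SD, n = 9 each), with 7 of 9 above the highest and 1 below the lowest CONTROL embryo. Among FOXJ3 embryos none of the LOF ratios of Bcl2l1 to Mcl1 or to Bax lay outside the CONTROL range, with both batches together. Cdkn1a to Mdm2 was -1.22 ± 0.618 with FOXJ3 LOF (SD, n = 16) and -1.80 ± 0.894 with rabbit IgG (SD, n = 13), with 13 of 16 LOF embryos above the CONTROL median and 2 above the highest CONTROL embryo. This difference lay in batch 1, at -1.05 ± 0.703 with LOF (SD, n = 9) and -2.12 ± 1.06 with IgG (SD, n = 7), and not in batch 2, at -1.45 ± 0.439 (SD, n = 7) and -1.44 ± 0.526 (SD, n = 6).

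**Figure D3:**
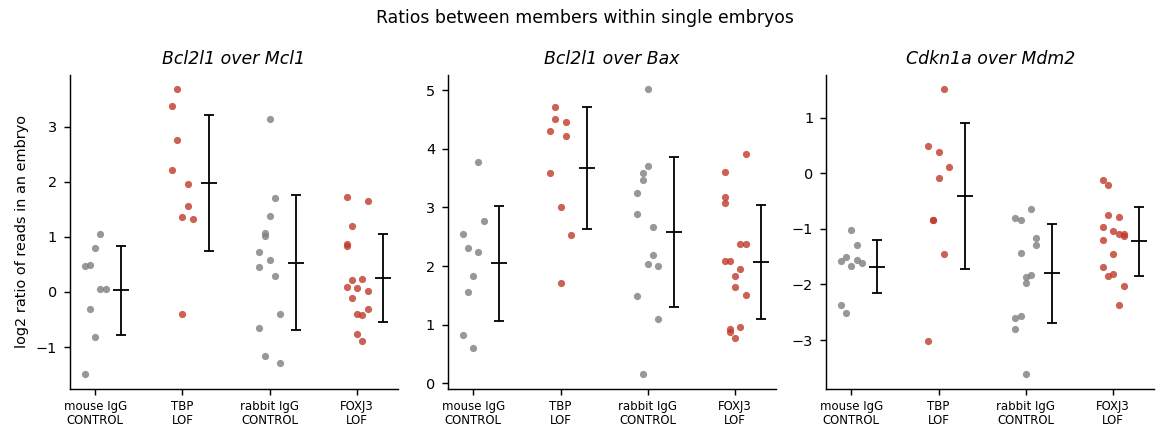
Log2 ratio of reads of 2 members within each embryo (vertical axis) in CONTROL (grey) and LOF embryos (red) of both experiments, with mean and SD as black bars. In the TBP experiment 8 of 9 LOF embryos have a Bcl2l1 to Mcl1 ratio above every CONTROL embryo, while for this ratio all FOXJ3 LOF embryos lie within the range of their CONTROL embryos.

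Other genes of the pathway were read from 5 lists, with 94 genes of which 84 were tested upon TBP LOF. Of these 34 were lower (29.8% of all genes were), 0 higher (1.4% of all genes) and 50 not past the threshold, with a median log2 fold change of -0.92 beside -0.70 for all genes. Lower calls were 5 of 16 p53 regulators, 12 of 27 other p53 targets, 4 of 9 tested BCL-2 family genes, 8 of 20 genes of the caspase cascade, and 5 of 12 stress genes and CDK inhibitors. The share among the p53 regulators was thus near that of all genes. Genes with the smallest adjusted p in each list are named. Among regulators of p53, the DNA damage kinases Atm (-2.40, SE 0.33, adjusted p = 8.75e-08) and Chek2 (-2.17, SE 0.36, adjusted p = 2.63e-06) fell, with all 9 LOF embryos below the lowest CONTROL embryo for both. Atm had 10.9 to 54.3 normalised read counts in LOF and 82.6 to 232 in CONTROL embryos. Among p53 targets, Ckap2 (-2.24, SE 0.35, adjusted p = 1.22e-06), a microtubule-associated protein of mitosis, and Sesn2 (-1.74, SE 0.29, adjusted p = 2.99e-06), a stress-induced inhibitor of mTORC1 signalling, also fell without overlap of the groups. Of the BCL-2 family, the guardian Bcl2l2 (-1.79, adjusted p = 0.000618) and the BH3-only gene Bad (-2.12, adjusted p = 0.00214) fell. Of the caspase cascade, the apoptosome scaffold Apaf1 (-2.46, SE 0.41, adjusted p = 3.54e-06) fell from 25.7 to 88.1 normalised read counts in CONTROL embryos to 0 to 25.4 in LOF embryos. Gadd45b, a paralog of Gadd45a (-1.46, adjusted p = 0.000289), and the pseudokinase Trib3 (-1.46, adjusted p = 0.000633) also fell. By TMM 12 of the 84 genes were lower and 15 higher, beside 12.9% and 13.2% of all genes. The lists then had 2 lower and 5 higher of 16 p53 regulators, 5 and 5 of 27 other p53 targets, 0 and 1 of 9 BCL-2 family genes, 4 and 3 of 20 genes of the caspase cascade, and 1 and 1 of 12 stress genes and CDK inhibitors. Of the 9 genes just named, Atm, Chek2, Ckap2, Sesn2 and Apaf1 were still called lower, and Bcl2l2 (adjusted p = 0.0764), Bad (0.147), Gadd45b (0.212) and Trib3 (0.118) were not.

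**Figure D4:**
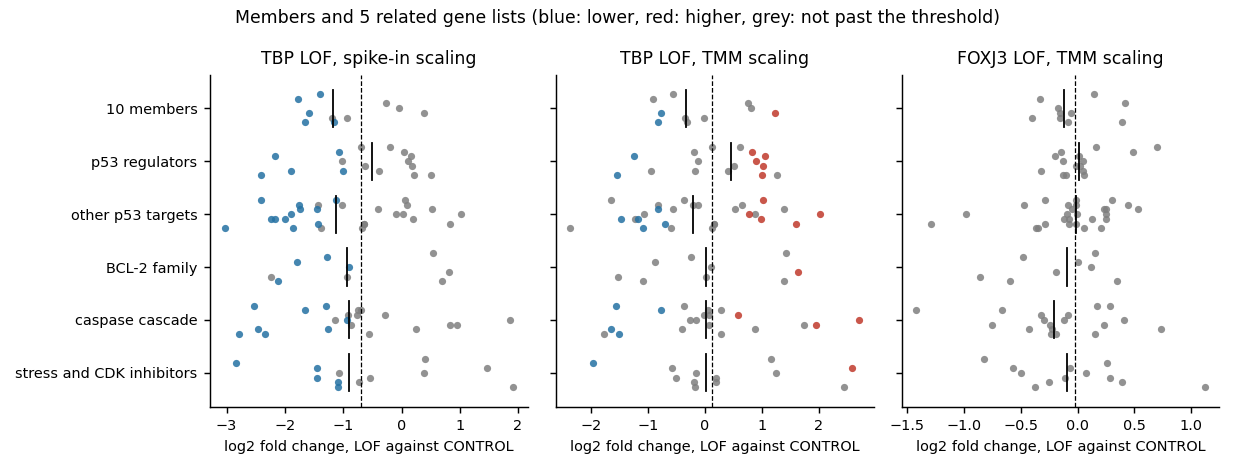
Log2 fold changes of LOF against CONTROL (horizontal axes, which differ in range) for the 10 members and the genes of 5 related lists, upon TBP LOF by spike-in and by TMM scaling and upon FOXJ3 LOF. Each point is a gene, black bars are list medians and the dashed line is the median of all genes: 34 of 84 listed genes are lower by spike-ins, 12 are lower and 15 higher by TMM, and 0 of 80 pass upon FOXJ3 LOF.

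FOXJ3 LOF changed 0 of the 10 members past the threshold, beside 2 of 18626 genes tested (0.0107%). None reached an unadjusted p under 0.05 in edgeR's test either (5.69% of genes did), and DESeq2 called 0 members. The log2 fold changes lay between -0.40 and 0.42, with a median of -0.12 beside -0.03 over all genes. These embryos were scaled by TMM, with library batch in the fit. Trp53 had 30.1 to 129.7 normalised read counts in LOF embryos (median 73.8) and 20.1 to 151 in CONTROL embryos (median 55.8). Mdm2 had 101 to 253.5 in LOF (median 173) and 138 to 265.5 in CONTROL embryos (median 194). Both groups covered much the same range, with log2 fold changes of -0.06 (95% interval -0.59 to 0.47) for Trp53 and -0.09 (-0.37 to 0.20) for Mdm2.

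For Mdm2 and Mcl1 the intervals were narrow. Mcl1 normalised read counts ran from 46.1 to 169 with FOXJ3 LOF (median 97.2) and from 35.9 to 142.5 with rabbit IgG (median 87.3), with a log2 fold change of 0.15 (-0.21 to 0.51). They were wider for the low genes, as for Bbc3 with -0.40 (-1.57 to 0.77), which was at 0 in 4 of 16 LOF and 2 of 13 CONTROL embryos. The smallest p among members was that of Cdkn1a, with 37.6 to 139 normalised read counts in LOF embryos (median 76.5), 15.3 to 118 in CONTROL embryos (median 55.4) and a log2 fold change of 0.42 (-0.07 to 0.90, adjusted p = 0.905). It was 0.94 in batch 1 (SE 0.32, adjusted p = 0.428) and -0.22 in batch 2 (SE 0.27, adjusted p = 0.989). Of the 10 members, 4 had the same sign in both batches (Mdm2, Bax, Bbc3 and Mcl1) and 6 had opposite signs. Bax, the next, had 13.8 to 52.2 in LOF (median 25.4) and 10.9 to 53.4 in CONTROL embryos (median 18.4), with 0.39 (-0.09 to 0.87) over both batches, 0.37 in batch 1 and 0.39 in batch 2. Gadd45a normalised read counts ran from 3.44 to 76.6 with FOXJ3 LOF (median 43.1) and from 13.7 to 89.6 with rabbit IgG (median 52.4), and those of Bcl2l1 from 67.4 to 379 (median 107.5) and from 44.2 to 373 (median 137). The ranges overlapped for both, and in each group of Bcl2l1 a single embryo stood far above the rest. The log2 fold change of Gadd45a was -0.33 (-0.95 to 0.28), that of Bcl2l1 -0.15 (-0.65 to 0.35), that of Ccng1 -0.18 (-0.90 to 0.55) and that of Pmaip1 -0.16 (-0.91 to 0.59). Of the 94 listed pathway genes 80 were tested and 0 passed, with 8 at an unadjusted p under 0.05 in edgeR's test. Over all 18626 genes tested, 0.0107% passed and 5.69% had an unadjusted p under 0.05. The smallest p-values belonged to Casp2, an initiator caspase (-1.42, adjusted p = 0.422), and the antiproliferative p53 target Btg2 (-1.29, adjusted p = 0.602).

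**Figure D5:**
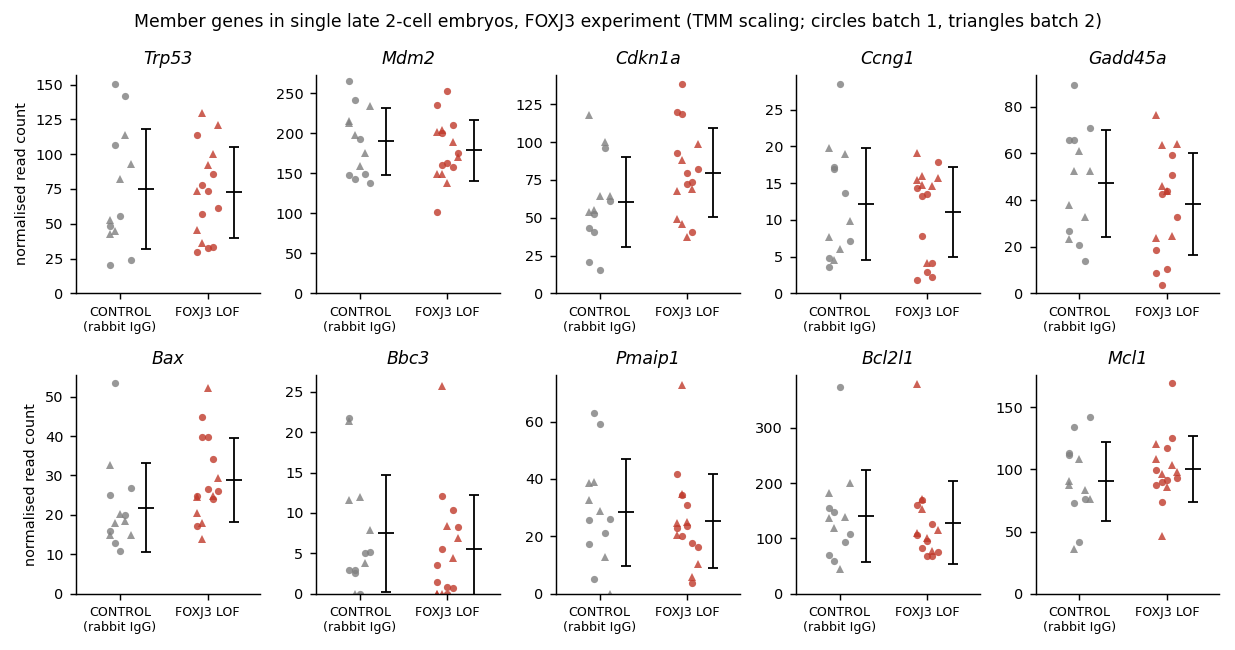
Normalised read counts (TMM scaling, vertical axis from 0, scale differs between panels) of the 10 genes in each CONTROL (grey, n = 13) and FOXJ3 LOF embryo (red, n = 16), with circles for batch 1, triangles for batch 2, and mean and SD as black bars that are cut at 0 for Bbc3. LOF and CONTROL embryos overlap in all 10 panels, and a few embryos stand high for Bax, Bbc3 and Bcl2l1.

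The difference between both effects was tested in a joint fit of the 47 embryos with spike-in scaling, as the TBP effect minus the FOXJ3 effect. It was lower past the threshold for 5 of 10 members, against 28.2% of 18759 genes, and higher for 0 (0.954% of genes). These were Mcl1 (-1.80, SE 0.43, adjusted p = 0.000645), Bax (-1.79, SE 0.50, adjusted p = 0.00379), Gadd45a (-1.77, SE 0.57, adjusted p = 0.0127), Mdm2 (-1.77, SE 0.37, adjusted p = 0.000116) and Trp53 (-1.68, SE 0.49, adjusted p = 0.00565). For Cdkn1a (-0.77, 95% interval -1.68 to 0.15), Bbc3 (-1.12, -3.16 to 0.92), Pmaip1 (-0.93, -2.14 to 0.29), Ccng1 (-0.02, -1.33 to 1.30) and Bcl2l1 (0.42, -0.49 to 1.33) the difference did not pass the test. By TMM it passed for 2 members, lower for Mdm2 (-0.73, adjusted p = 0.0187) and higher for Bcl2l1 (1.41, adjusted p = 0.00581), beside 11.2% of genes lower and 10.9% higher. The median of all genes in this difference was -0.88 by spike-ins and 0.14 by TMM.

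CPM, a share of gene and TE reads, can be set side by side across the 4 groups, but it is not a level per embryo. Mdm2 was at 35.4 ± 8.55 CPM (SD, n = 9) in TBP LOF embryos. It was at 75.1 ± 28.0 (n = 9) in mouse IgG CONTROL, 87.5 ± 24.3 (n = 16) in FOXJ3 LOF and 97.1 ± 25.04 (n = 13) in rabbit IgG CONTROL embryos. The last 3 groups differed by less than their spread. Gadd45a stood at 4.67 ± 2.28 CPM in TBP LOF (SD, n = 9) and 10.5 ± 5.51 in mouse IgG CONTROL (n = 9), and at 19.02 ± 11.6 in FOXJ3 LOF (n = 16) and 24.8 ± 13.7 in rabbit IgG CONTROL embryos (n = 13). Its CONTROL groups overlapped, at 4.38 to 19.9 CPM with mouse IgG and 6.68 to 51.0 with rabbit IgG, and the IgG and the experiment cannot be told apart. Bcl2l1 was at 83.9 ± 37.3 CPM in TBP LOF (SD, n = 9), 41.9 ± 12.6 in mouse IgG CONTROL (n = 9), 62.9 ± 37.5 in FOXJ3 LOF (n = 16) and 69.1 ± 35.1 in rabbit IgG CONTROL embryos (n = 13). In the TBP pair the ranges overlapped narrowly, at 49.5 to 173 CPM in LOF and 19.2 to 59.4 in CONTROL embryos. Relative to the spike-ins, Bcl2l1 did not pass edgeR's test in this pair (0.38 on the log2 scale, adjusted p = 0.405).

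Across the 47 embryos, Spearman correlations were taken on log2 CPM after the mean of each group and batch was taken off. Pairs of members had a median of 0.13 over 45 pairs, with 29 above 0. The highest was Gadd45a with Mcl1 (0.52) and the lowest Bbc3 with Bcl2l1 (-0.36). Mean differences between LOF and CONTROL embryos thus do not enter, but the embryos differ in depth, so these values describe the set of libraries. By the same measure, of 7020 genes with a mean of at least 10 CPM, the 3 most like Mdm2 included Rad17 (0.62) and Ppp1r7 (0.61). Those most like Bcl2l1 were Il7 (0.88), Me1 (0.82) and Reep2 (0.82).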

How the data were processed

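The authors trimmed the reads with Trimmomatic, kept the second read of 5' fragments, mapped it with STAR 2.7.11a (per the labels) to GRCm38 with the mCherry-Trim21 construct added and the Trim21 locus masked, and counted genes (gencode M20), ERCC transcripts and TE families with TEcount. The deposited values are estimated counts (expected counts) per embryo without normalization, all whole numbers, so rounding changed nothing. No source used here gives how reads of several loci were shared out or whether strand was used. PCR reads carry no molecular identifiers, so the limit given for a count of 0 covers counting error only, whereas the 95% intervals of fold changes come from the fits and include the spread between embryos. Separate tables of counts per TE insertion were not used here.

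Embryos with at least 500000 reads and 1000 genes, at most 10% mitochondrial and at most 15% ERCC reads were kept, 47 of 49. Features read at least once in 25% or more of the embryos were tested with edgeR 4.0.16 (quasi-likelihood, R 4.3.3). TBP embryos were scaled by median-of-ratios factors from the 42 ERCC transcripts that every embryo held, FOXJ3 embryos by TMM with batch as covariate, and the joint fit to ERCC. Standard errors come from the F statistic. The authors used DESeq2. Normalised counts are set to 1 experiment each and are not compared across them. The labels do not say which TBP embryos came from which of the 3 collections, so no term for it was fitted, and p-values measure the spread between embryos, which may share a collection. Symbols come from gencode M21, in which Pmaip1 has another version of its identifier. Named genes are all members, Tbp and Foxj3, and from each of 5 pathway lists up to 2 genes with the smallest adjusted p per direction upon TBP LOF. Upon FOXJ3 LOF they are the 2 list genes with the smallest p. Genes most like a member were sought for members with a mean of at least 50 CPM. Of the genes these rules name, 2 are not reported here. The members and lists were chosen with earlier results of these data known. The ratios between members were chosen after the values were seen. The tests were checked on simulated counts with known changes, with the same spread for all genes and as many rises as falls. That check does not cover genes of wider spread, such as Bbc3, or a shift of many genes in one direction. Alternatives were other scalings, filters, tools, covariates and embryos. Python 3.11.15, pandas 2.3.3, numpy 2.4.6, scipy 1.17.1, matplotlib 3.10.9 and DESeq2 1.42.0 were also used.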

Additional observations from a re-analysis of the deposited data

Results flagged for a closer look

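The effect of TBP LOF differed from that of FOXJ3 LOF, by a test of the difference in a joint edgeR fit, for Trp53 (-1.68 on the log2 scale, adjusted p = 0.00565), Mdm2 (-1.77, adjusted p = 0.000116), Gadd45a (-1.77, adjusted p = 0.0127), Bax (-1.79, adjusted p = 0.00379) and Mcl1 (-1.80, adjusted p = 0.000645). In the same fit 28.2% of 18759 genes were called lower, and the median difference over all genes was -0.88. With TMM in place of spike-in scaling the difference passed for Mdm2 among these 5 genes, beside 11.2% of all genes that were lower.

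A single embryo stood far from the rest in 8 of 60 sets of a gene and a group, with the 2 batches of the FOXJ3 experiment taken as separate groups. The measure was the gap to its nearest neighbour over the range of the set. Each next value given here is the nearest in the same group and batch. The rule was set to give about 1 in 20 such sets by chance, a rate that was not checked for low counts such as those of Bbc3. The number of sets flagged is therefore not read as an excess. All 8 were in the FOXJ3 experiment, which holds more of the sets because its batches were taken apart. For Bcl2l1 they were FOXJ3 LOF embryo 7 of batch 2, at 379 normalised read counts (next embryo 172), and CONTROL embryo 3 of batch 1, at 373 (next 155). For Bax they were FOXJ3 LOF embryo 3 of batch 2, at 52.2 (next 29.4), CONTROL embryo 7 of batch 1, at 53.4 (next 26.7), and CONTROL embryo 1 of batch 2, at 32.8 (next 20.3). The last lay within the range of batch 1 CONTROL embryos, 10.9 to 53.4. For Bbc3 they were FOXJ3 LOF embryo 9 of batch 2, at 25.8 (next 8.35), and CONTROL embryo 6 of batch 1, at 21.7 (next 5.21). The highest CONTROL embryo of batch 2 had 21.4 for Bbc3. Ccng1 was low for its batch in FOXJ3 LOF embryo 3 of batch 2, at 4.18 (next 14.6), the embryo in which Bax was high. In batch 1, Ccng1 of FOXJ3 LOF embryos went down to 1.77.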

How the results depend on the processing

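With TMM or with DESeq2's size factors over genes, 3 members passed upon TBP LOF in each case, 2 lower (Trp53, Mdm2) and 1 higher (Bcl2l1), and with TMM 2 passed in the difference of the effects. Log2 fold changes that turned in sign upon TBP LOF were Cdkn1a (0.76 by TMM, 0.78 by DESeq2's size factors), Ccng1 (0.81 and 0.85) and Pmaip1 (0.0159 by DESeq2's size factors), none past the threshold. In the difference, Cdkn1a (0.36), Ccng1 (1.01), Bbc3 (0.0539) and Pmaip1 (0.14) turned by TMM, and Ccng1 (0.0772) with all 49 embryos. DESeq2 as the tool gave 6 members upon TBP LOF, adding Pmaip1 (adjusted p = 0.0487), which also passed with filterByExpr (adjusted p = 0.0444), where Gadd45a was not tested. Over all 8 alternatives other than leaving out single embryos, members called upon TBP LOF ran from 3 to 6. Genes called in these 8 fits ran from 4179 to 6551, beside 5755 of 18447 tested (31.2%) in the main fit. Leaving out each embryo in turn gave 4 to 6 members and 5189 to 5860 genes upon TBP LOF, and 0 members and 1 to 4 genes upon FOXJ3 LOF. Ccng1 then lay between -0.27 and 0.13 upon TBP LOF, and upon FOXJ3 LOF Trp53 lay between -0.14 and 0.0823, Ccng1 between -0.27 and 0.00937, Bbc3 between -0.82 and 0.00901, and Bcl2l1 between -0.34 and 0.10.

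Upon FOXJ3 LOF, members called stayed at 0 in all 11 other alternatives. Genes called were 4 with DESeq2, 4 with no filter on low counts, 1 with filterByExpr, and 0 with mCherry-Trim21 as covariate, in batch 1 alone or in batch 2 alone. With spike-in scaling Trp53 (0.0903) and Mdm2 (0.11) turned in sign. In batch 2 alone Trp53 (0.24), Cdkn1a (-0.22), Ccng1 (0.32), Gadd45a (0.17), Pmaip1 (0.15) and Bcl2l1 (0.19) turned. For changes that only the scaling or the batch moved, the cause was not tested.

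Same-numbered embryos did not all deviate together (r from -0.05 to 0.13 over 7 pairs of TBP embryos, 0 best with their own number, and from -0.205 to 0.27 over 12 pairs of FOXJ3 embryos, 3 best with their own). All 3 were among the 6 pairs of FOXJ3 batch 2, where r reached 0.27, 0.19 and 0.14 in 3 pairs and was under 0.1 in the others, a hint from the data and not from the labels, so the numbers were taken only as names. With them as a replicate block, 5 members passed upon TBP LOF and 0 members and 0 genes upon FOXJ3 LOF, and Ccng1 (0.19, TBP) and Trp53 (0.25, FOXJ3) turned in sign. The genes called upon TBP LOF with this block lay within the range given for the 8 alternatives, 4179 to 6551.

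Depth limits the low genes: Bbc3, Bax, Ccng1, Gadd45a and Pmaip1 had medians of 0 to 21 reads per embryo in the TBP experiment, and their intervals are wide.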
